A study of Homo sapiens with 21 samples.

Results

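The 8 genes described here make hyaluronan, cut it, bind it or, as proteoglycan core proteins, share the matrix with it, namely HAS2, HAS3, CD44, HYAL2, HYAL3, CEMIP2, VCAN and SRGN. They were chosen by their role, with the log2 differences between each clone and the vector clone V22 already known, so those differences are given as a description and without a test. A probe set carrying the symbol alone was found for 7 of them, each with 1 probe set, among 18374 genes measured in this way. HYAL3 was not analysed here, because the annotation used pairs it with no probe set. None of the 7 lay among the dimmest 30% of probe sets.

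Total RNA was measured from clones of U-87MG, an established line of human glioblastoma cells, which express parkin (PK7, PK19 and PK25) or carry the vector alone (V8, V17 and V22). Parkin, an E3 ubiquitin ligase, takes part in the clearance of damaged mitochondria. Each clone is a single line, the labels name no further treatment, and each has 3 arrays per array series, which the labels number as sets. The prefix of the scanner file names splits the 21 arrays into a series with the 9 parkin arrays and 3 arrays of V22 (the parkin series), and a series with 3 arrays each of V8, V17 and V22 (the vector series). Every parkin clone was therefore set against V22 of the parkin series, and V8 and V17 against V22 of the vector series. The values are RMA intensities on the log2 scale, where a difference of 1 is 2-fold, and they are levels of 1 probe set that should not be compared between genes. Nothing says that the arrays of a clone came from separate cultures, so p-values over arrays measure the spread between arrays only. The glial and mesenchymal markers VIM (12.46 to 12.96 over the 21 arrays), SOX9 (7.72 to 8.61) and NES (6.97 to 8.11) were measured well above the dim limit of 4.96, the level under which the dimmest 30% of probe sets lie. Of the other 5 glial markers, GFAP (6.02 to 7.03) and SOX2 (5.51 to 7.12) lay above it, FABP7 (4.80 to 5.86) near it, and S100B and AQP4 below it.

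Hyaluronan is a long unsulfated sugar chain that synthases of the plasma membrane build from UDP-glucuronic acid and UDP-N-acetylglucosamine and push out of the cell. CD44 is its main receptor on the cell surface, hyaluronidases cut it, and versican binds it to form large aggregates in the pericellular matrix. In brain tumours hyaluronan is a major part of the extracellular matrix and CD44 is a marker of the mesenchymal glioblastoma subtype.

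HAS2, the synthase of long hyaluronan chains, had the widest range of clone levels among the 7 genes. It read 5.69, 5.60 and 5.32 in PK7, 8.72, 10.15 and 8.73 in PK19 and 8.94, 8.33 and 8.66 in PK25, against 7.91, 7.31 and 8.02 in V22 of the parkin series. PK7 was lower than V22 on all its arrays and PK19 and PK25 were higher, with no overlap of arrays in any of these 3 comparisons. The difference from V22 was -2.21 in PK7 (4.63-fold lower), 1.45 in PK19 (2.74-fold higher) and 0.90 in PK25 (1.86-fold higher). Within PK19 the set 2 array stood above the other two, and without it the PK19 difference was 0.98.

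The largest HAS2 level was found in a vector clone. V8 read 10.02, 11.48 and 10.48 and V17 read 7.47, 7.50 and 7.48, against 7.39, 7.52 and 7.77 in V22 of the vector series. V8 exceeded V22 by 3.10 (8.58-fold), the fourth largest rise of V8 among 26947 probe sets, while V17 overlapped V22 (difference -0.08). In V8, as in PK19, the set 2 array was the highest, and without it the V8 difference was 2.69. In the order of levels within each series, PK19 and PK25 overlapped, as did V22 and V17, and the other neighbours in the order did not.

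HAS3, which encodes a synthase of shorter chains, moved little. Its clone means spanned 0.39 on the log2 scale, and the differences from V22 ran from -0.21 in PK19 to 0.08 in PK7. In every clone its arrays overlapped those of V22.

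**Figure D1:**
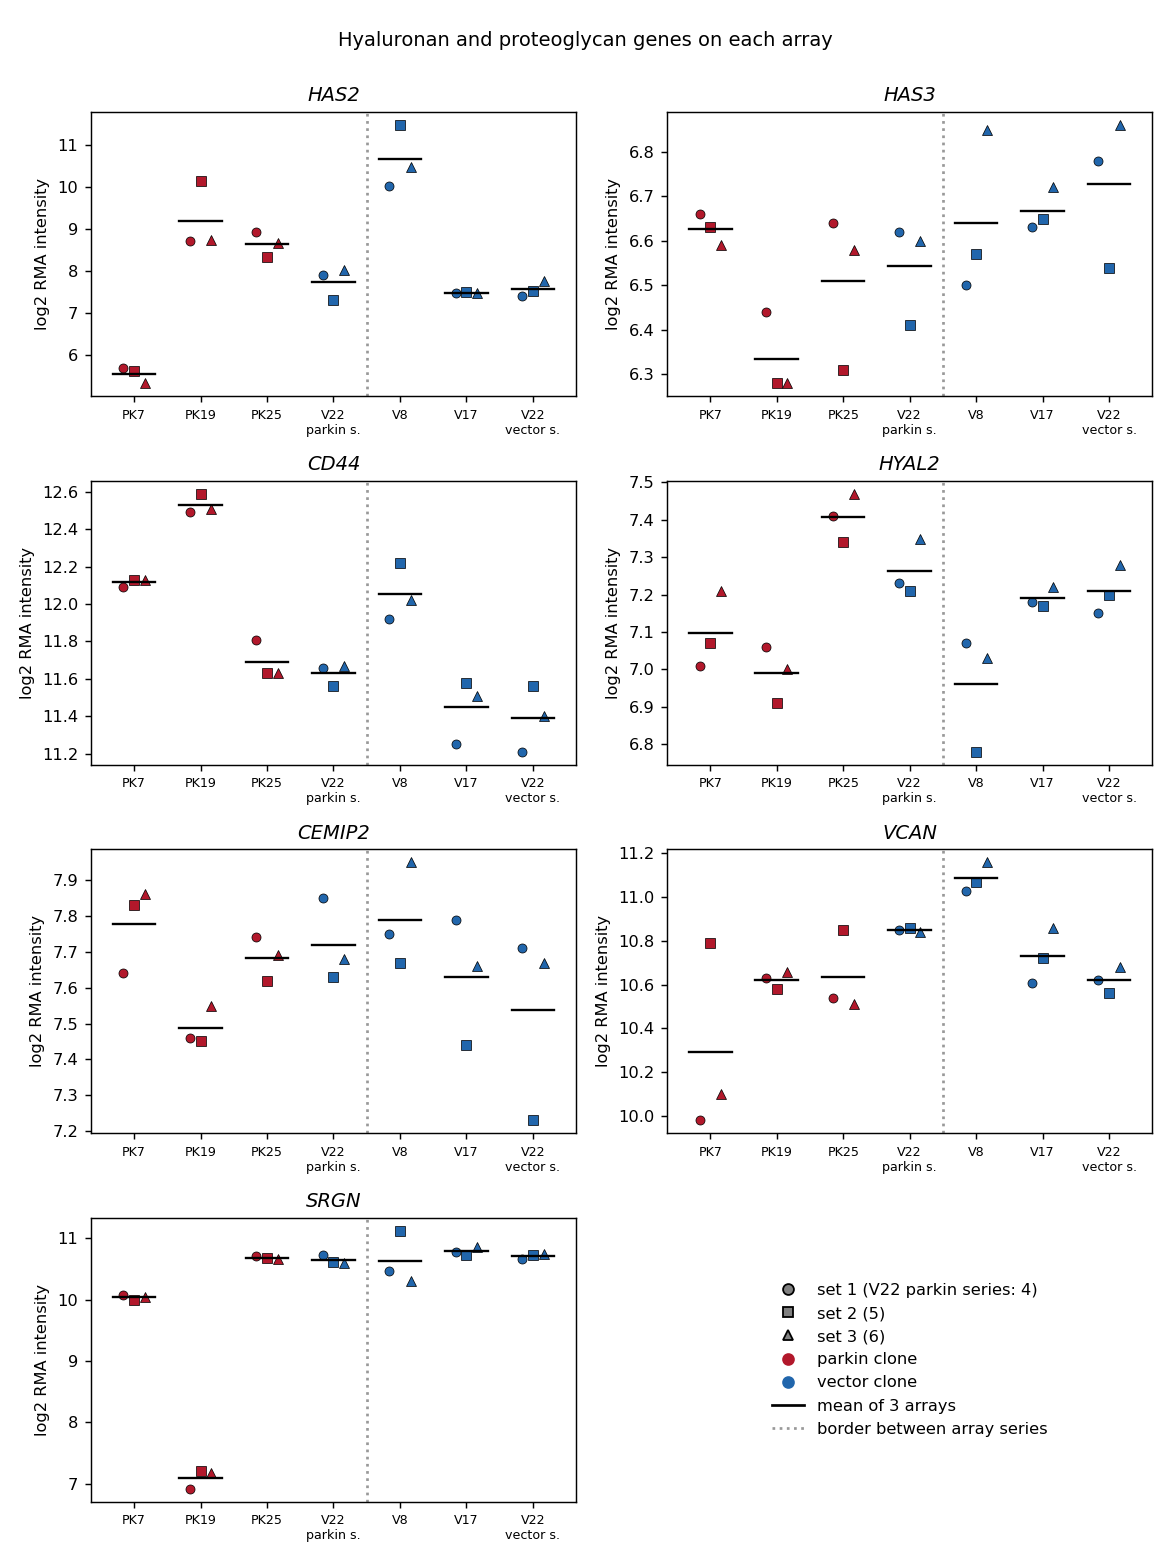
Log2 RMA intensity (vertical axes, scaled to each gene) of the 7 measured genes on each array (points, shaped by set number) with the mean of 3 arrays (bars), for parkin clones (red) and vector clones (blue), parkin series left of the dotted line. HAS2 is lowest in PK7 and highest in V8. SRGN is far lower in PK19 than in any other of the 6 clones, and less far below V22 in PK7.

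CD44, the hyaluronan receptor, was higher than V22 in PK7, PK19 and V8. It read 12.09, 12.13 and 12.13 in PK7, 12.49, 12.59 and 12.51 in PK19 and 11.81, 11.63 and 11.63 in PK25, against 11.66, 11.56 and 11.67 in V22. All PK7 and PK19 arrays lay above V22, and those of PK25 overlapped it. The differences were 0.49 in PK7 (1.40-fold), 0.90 in PK19 (1.87-fold) and 0.06 in PK25. Among vector clones V8 read 11.92, 12.22 and 12.02 and V17 read 11.25, 11.58 and 11.51, against 11.21, 11.56 and 11.40 in V22 of the vector series. V8 was 0.66 above V22 (1.58-fold) without overlap, and V17 overlapped V22 (0.05). The probe set covers the gene as a whole, so CD44 splice forms were not told apart.

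PK19 and V8 were thus above V22 for both HAS2 and CD44, whereas PK7 was below it for HAS2 and above it for CD44. PK25 was above V22 for HAS2 and overlapped it for CD44.

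The promoters of CD44 and VCAN are shown as examples of genes that differed between clones in these data, in a different order of the parkin clones. HAS2 and SRGN had wider ranges of clone means (5.12 and 3.68, against 1.14 for CD44 and 0.79 for VCAN). HAS2 was left out of the promoter search, and the promoter set used held no SRGN entry. Each line gives the 250 bases before the gene start from RefSeq, with GC boxes (GGGCGG on either strand) in capitals. CD44 lies at chr11:35138921-35139170 and VCAN at chr5:83471494-83471743 of GRCh38.p14, both on the plus strand.
CD44: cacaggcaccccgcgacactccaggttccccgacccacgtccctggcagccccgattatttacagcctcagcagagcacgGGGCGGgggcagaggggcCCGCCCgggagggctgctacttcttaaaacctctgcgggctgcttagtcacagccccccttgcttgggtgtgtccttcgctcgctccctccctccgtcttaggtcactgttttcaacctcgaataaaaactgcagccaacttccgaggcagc
VCAN: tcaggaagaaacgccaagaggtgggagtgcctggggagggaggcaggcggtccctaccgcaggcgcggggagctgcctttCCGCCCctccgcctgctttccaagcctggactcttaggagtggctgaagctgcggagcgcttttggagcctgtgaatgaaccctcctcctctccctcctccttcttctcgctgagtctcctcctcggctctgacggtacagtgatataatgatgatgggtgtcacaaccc
The CD44 window held 2 GC boxes and the VCAN window 1, and 42.6% of 35116 promoter windows of the same length held at least 1. A TATA box (TATAAA, either strand) was in neither window and in 10.7% of all. The core ACGTG of the hypoxia response element occurred once in the CD44 window on either strand and not in that of VCAN (18.5% of all windows). These matches describe letters only.

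Of the genes that cut hyaluronan, HYAL2, a hyaluronidase anchored to the cell surface, differed by less than 0.3 in every clone. It read 7.06, 6.91 and 7.00 in PK19, against 7.23, 7.21 and 7.35 in V22, a difference of -0.28 without overlap. V8 read 7.07, 6.78 and 7.03, against 7.15, 7.20 and 7.28 in V22 of its series, a difference of -0.25, again without overlap. PK7 differed by -0.16, PK25 by 0.14 and V17 by -0.02, with overlapping arrays.

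CEMIP2, a transmembrane protein described as a cell-surface hyaluronidase, spanned 0.30 between clone means. PK19 read 7.46, 7.45 and 7.55, against 7.85, 7.63 and 7.68 in V22, a difference of -0.23 without overlap. The other clones overlapped V22, with differences between -0.04 in PK25 and 0.25 in V8. In V22 of the vector series 1 array read 7.23, where the other two read 7.71 and 7.67.

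VCAN encodes versican, a large chondroitin sulfate proteoglycan that binds hyaluronan. It read 9.98, 10.79 and 10.10 in PK7, 10.63, 10.58 and 10.66 in PK19 and 10.54, 10.85 and 10.51 in PK25, against 10.85, 10.86 and 10.84 in V22. PK7 and PK19 lay below V22 on all arrays, although the PK7 set 2 array came within 0.1 of it, and PK25 overlapped V22. The differences were -0.56 in PK7, -0.23 in PK19 and -0.22 in PK25, and that of PK7 was -0.81 without its set 2 array. V8 read 11.03, 11.07 and 11.16, against 10.62, 10.56 and 10.68 in V22 of the vector series, a difference of 0.46 without overlap. V17 overlapped V22 with a difference of 0.11.

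SRGN encodes serglycin, a small intracellular proteoglycan of secretory granules, best known from blood cells. It read 6.92, 7.21 and 7.18 in PK19, against 10.73, 10.61 and 10.60 in V22, a difference of -3.55 (11.7-fold lower) and the fourth largest fall of PK19 among 26947 probe sets. PK7 read 10.08, 9.99 and 10.04, below V22 on all arrays, with a difference of -0.61 (1.53-fold lower). PK25 read 10.71, 10.67 and 10.66 and overlapped V22 (0.03). The vector clones V8 (-0.09) and V17 (0.07) overlapped V22 too. The V8 arrays were spread widely, at 10.47, 11.12 and 10.30.

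Since SRGN is best known from blood cells, 11 markers of blood and myeloid cells were read beside it. Of these, 6 lay below the dim limit in PK19 and 8 in V22 of the parkin series. Over all arrays PTPRC read 2.82 to 3.42 and LYZ 2.97 to 3.54, both below the limit. TYROBP (6.79 to 7.58), CSF1R (5.72 to 6.34) and CD14 (4.98 to 5.93) lay above it on every array, and ITGAM (4.85 to 5.49) near it. The means of AIF1, CD163, CD3E, FCER1G and MS4A1 lay below it. The summed intensity of the 11 markers was 384.7 to 433.7 in PK19 and 354.6 to 385.0 in V22 of the parkin series. It was 361.6 to 491.3 in PK25 and 364.3 to 427.1 in V22 of the vector series, so the PK19 range was not particular to that clone. FCER1G, a receptor chain of myeloid cells, was higher in PK19 by 1.08 (SE 0.21, limma adjusted p = 0.0011), and the other 10 were not past the threshold there, which here and below is a limma p under 0.05 after Benjamini-Hochberg adjustment over all probe sets with a difference of at least 2-fold. The part of these markers in the SRGN difference was not tested.

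**Figure D2:**
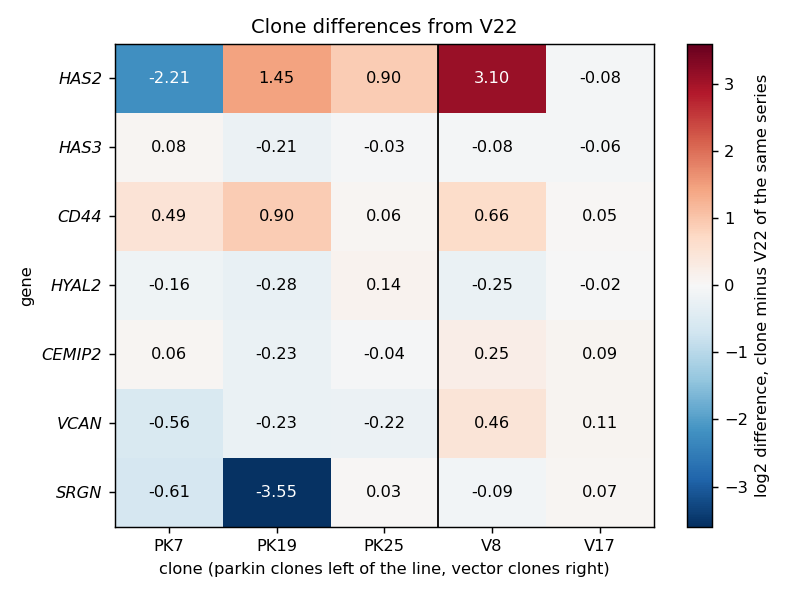
Log2 difference of each clone (columns) from V22 of the same array series for the 7 genes (rows), from means of 3 arrays. The extremes are -3.55 for SRGN in PK19 and 3.10 for HAS2 in V8.

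The difference from V22 was at least 2-fold for HAS2 in PK7, PK19 and V8 and for SRGN in PK19, and below 2-fold for the other genes and clones. These differences were known when the genes were chosen, so no test is given.

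The V22 clone, measured in both series, allowed a test that the choice of genes did not use. The differences of V22 in the parkin series from V22 in the vector series were 0.19 for HAS2 (SE 0.33), 0.24 for CD44 (SE 0.11), 0.23 for VCAN (SE 0.15), 0.18 for CEMIP2, 0.06 for HYAL2, -0.07 for SRGN and -0.18 for HAS3. None of the 7 genes was past the threshold (limma adjusted p of 0.55 for CD44 and 0.69 or more for the other 6), where 0.00371% of all probe sets were. CD44 had the only unadjusted p under 0.05 (0.039 in limma), which 8.75% of all probe sets had. For V22 itself the series means of these genes were thus up to 0.24 apart, the largest being that of CD44. The PK19 differences of -0.23 for VCAN, -0.28 for HYAL2 and -0.23 for CEMIP2 were taken within the parkin series. A shift between the series therefore does not enter them. None of 127 other pathway genes described further on passed between the series in limma, and 6 (4.72%) had an unadjusted p under 0.05.

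The study compares parkin with vector clones, and for that comparison the clone is the replicate. The series were joined by adding to the vector series, for each probe set, the V22 difference between them (parkin series minus vector series). The difference of the 3 parkin from the 3 vector clones was then -1.37 for SRGN, -0.96 for HAS2, -0.53 for VCAN, -0.19 for CEMIP2, 0.24 for CD44, -0.01 for HYAL2 and 0.00 for HAS3. In HAS2, V8 was higher than every parkin clone, and the parkin clones lay on both sides of V22. In SRGN the difference came mostly from PK19. These values are built from the clone differences known when the genes were chosen and get no test.

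Other genes of hyaluronan and proteoglycan biology were taken from 6 lists that cover hyaluronan synthesis and turnover, hyaluronan-binding proteins, proteoglycan core proteins, assembly of glycosaminoglycan chains, partners of CD44 and ADAMTS proteases. Of 138 genes 127 were measured. The lists were chosen with earlier results of these data known, which the p-values and shares given for their genes do not allow for. PK7 had 6 of them higher and 3 lower past the threshold of limma, where 2.3% of all probe sets passed (1.44% higher and 0.865% lower). PK19 had 5 higher and 3 lower, where 2.89% of all probe sets passed (1.62% higher and 1.27% lower). V8 had 2 higher and 1 lower, where 0.98% of all probe sets passed (0.568% higher and 0.412% lower). PK25 had none, where 0.193% of all probe sets passed, and 17 genes (13.4%) had an unadjusted limma p under 0.05, against 11.3% of all probe sets. V17 had none, where 0% of all probe sets passed, and 3 genes (2.36%) had an unadjusted limma p under 0.05, against 2.71% of all probe sets. The median difference of the 127 genes was 0.08 in PK7, 0.02 in PK19, 0.03 in PK25, 0.02 in V8 and 0.01 in V17, and that of all probe sets was between 0 and 0.02.

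Among the proteins that bind hyaluronan or its fragments, 3 of 20 rose in PK7. TLR4, an innate immune receptor that has been described as responding to hyaluronan fragments, read 7.35, 6.72 and 7.40 in PK7, against 3.68, 3.73 and 3.75 in V22. Its difference was 3.44 (SE 0.16, limma adjusted p = 1.6e-11), and V22 lay below the dim limit. The TLR4 differences were 0.16 in PK19 and 0.17 in PK25. PTX3, a pentraxin that helps cross-link hyaluronan, rose in PK7 by 1.41 (SE 0.15, limma adjusted p = 1.1e-06). TNFAIP6, which transfers heavy chains onto hyaluronan, rose in PK7 by 1.16 (SE 0.22, limma adjusted p = 0.0010) and in PK19 by 1.13 (SE 0.22, limma adjusted p = 0.0011), and the PK7 difference was 0.90 without its set 3 array. The PK7 arrays of TNFAIP6 were uneven, at 6.43, 5.45 and 6.70. The vector clone V8 also lay above V22 on all arrays, by 0.81 for PTX3 and 0.61 for TNFAIP6. PTX3 differed by 0.43 in PK19 and -0.03 in PK25.

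LAYN, another hyaluronan receptor, fell in PK19 by 1.00 (SE 0.19, limma adjusted p = 8e-04), and differed by 0.77 in PK7. This call sits at the 2-fold limit. The mean of both LAYN probe sets differed by -0.49 in PK19, and leaving out single arrays gave values down to -0.86, both under 2-fold.

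Of 12 genes of hyaluronan synthesis and turnover, 1 rose and 2 fell in PK7, and none passed in PK19. CEMIP, a protein needed for hyaluronan breakdown in fibroblasts, read 7.72, 8.75 and 7.66 in PK7, against 5.59, 5.36 and 5.79 in V22. Its difference was 2.46 (SE 0.23, limma adjusted p = 2.9e-07). CEMIP thus rose in the clone with the lowest HAS2, and its differences were 0.19 in PK19, -0.32 in PK25 and 0.27 in V8. SLC35D1, a carrier of UDP-sugars into the secretory pathway, fell in PK7 by 1.21 (SE 0.12, limma adjusted p = 7e-07). GUSB, the lysosomal beta-glucuronidase, fell in PK7 by 1.00 (SE 0.16, limma adjusted p = 0.00014), a call at the 2-fold limit that was lost after quantile normalization (-0.96) and without single arrays (down to -0.98).

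Of 39 proteoglycan core proteins, 1 passed in PK7, 2 in PK19 and 3 in V8. SDC3, the membrane heparan sulfate proteoglycan syndecan-3, read 7.04, 6.86 and 6.92 in PK7 and 6.09, 6.27 and 6.23 in PK19, against 8.00, 7.92 and 7.99 in V22. It fell in PK7 by 1.03 (SE 0.11, limma adjusted p = 9.7e-07) and in PK19 by 1.77 (SE 0.11, limma adjusted p = 2.9e-10). The PK7 difference was -0.99 without its set 2 array. SDC3 also differed by -0.79 in PK25 and -0.82 in V8, so that only V17 (-0.06) overlapped V22. TGFBR3, betaglycan, rose in PK19 by 1.07 (SE 0.20, limma adjusted p = 0.00067). This call is near the 2-fold limit, and how it depends on single arrays was not examined.

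In the vector clone V8 a pair of small leucine-rich proteoglycans rose, LUM and DCN. LUM (lumican) read 6.29, 7.44 and 6.53 in V8, against 4.75, 4.18 and 4.74 in V22. Its difference was 2.20 (SE 0.44, limma adjusted p = 0.0031). LUM read 4.61, 6.85 and 4.47 in PK7 and 5.10, 5.33 and 5.66 in PK19, against 4.15, 4.05 and 4.22 in V22 of the parkin series. Both clones lay above V22 on all arrays, with differences of 1.17 in PK7 and 1.22 in PK19 that did not pass (limma adjusted p = 0.088 and 0.08). The PK7 difference came mostly from its set 2 array. The V22 means of LUM lay below the dim limit in the parkin series (4.14) and the vector series (4.56). Without the V8 set 2 array the V8 difference of LUM was 1.85. DCN (decorin) rose in V8 by 1.19 (SE 0.22, limma adjusted p = 0.0016), or 0.90 without its set 2 array, and its mean was below the dim limit in both V8 (4.94) and V22 (3.76). GPC6, the membrane-anchored glypican-6, fell in V8 by 1.02 (SE 0.14, limma adjusted p = 7.4e-05), or 0.99 without its set 1 array or V22 set 1, and differed by 0.84 in PK19.

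Of 43 genes of chain assembly and sulfation, 2 rose in PK7, and in PK19 2 rose and 1 fell. CSGALNACT1 and CSGALNACT2 add N-acetylgalactosamine in chondroitin sulfate synthesis, the chains that versican and serglycin carry. CSGALNACT1 rose in PK7 by 1.40 (SE 0.21, limma adjusted p = 9.5e-05) and in PK19 by 1.18 (SE 0.21, limma adjusted p = 5e-04), with V22 below the dim limit. CSGALNACT2 read 9.62, 9.60 and 9.63 in PK19, against 8.40, 8.36 and 8.41 in V22, a rise of 1.22 (SE 0.10, limma adjusted p = 4.7e-08). DSE, an epimerase that makes dermatan sulfate, rose in PK7 by 1.11 (SE 0.10, limma adjusted p = 2.1e-07). HS3ST2, a heparan sulfate sulfotransferase, fell in PK19 by 1.31 (SE 0.18, limma adjusted p = 2.7e-05).

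Of 6 ADAMTS proteases that can cleave versican and its relatives, ADAMTS5 passed, in PK19 alone. It read 10.13, 10.22 and 10.19 in PK19, against 7.55, 7.48 and 7.77 in V22, a rise of 2.58 (SE 0.24, limma adjusted p = 1.7e-07). None of the 7 linkers, splicing factors and proteases of CD44 passed against V22 in any clone. Among them ADAM10, a protease that sheds CD44, differed by 0.79 in PK7, and MSN (moesin), which ties CD44 to actin, by -0.43 in PK19.

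The parkin clones also differed from each other in these genes. By limma's F test among PK7, PK19 and PK25, which has no fold limit, 49 of the 127 genes passed (38.6%), where 23.6% of all probe sets did. By list the share ran from 25% of the 20 hyaluronan-binding proteins to 57.1% (4 of 7) of the linkers, splicing factors and proteases of CD44. The 49 genes included TLR4 (adjusted p = 5.9e-12), CEMIP (adjusted p = 4.7e-08), CSGALNACT2 (adjusted p = 4.3e-08) and ADAMTS5 (adjusted p = 3.1e-07). LUM (adjusted p = 0.37) and DCN (adjusted p = 0.63) did not pass. In the parkin against vector comparison over clone means none of the 127 genes passed in limma (adjusted p under 0.05), where 0.00371% of all probe sets did. Of the 127 genes 15 (11.8%) had an unadjusted p under 0.05, a smaller share than the 14.1% of all probe sets.

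**Figure D3:**
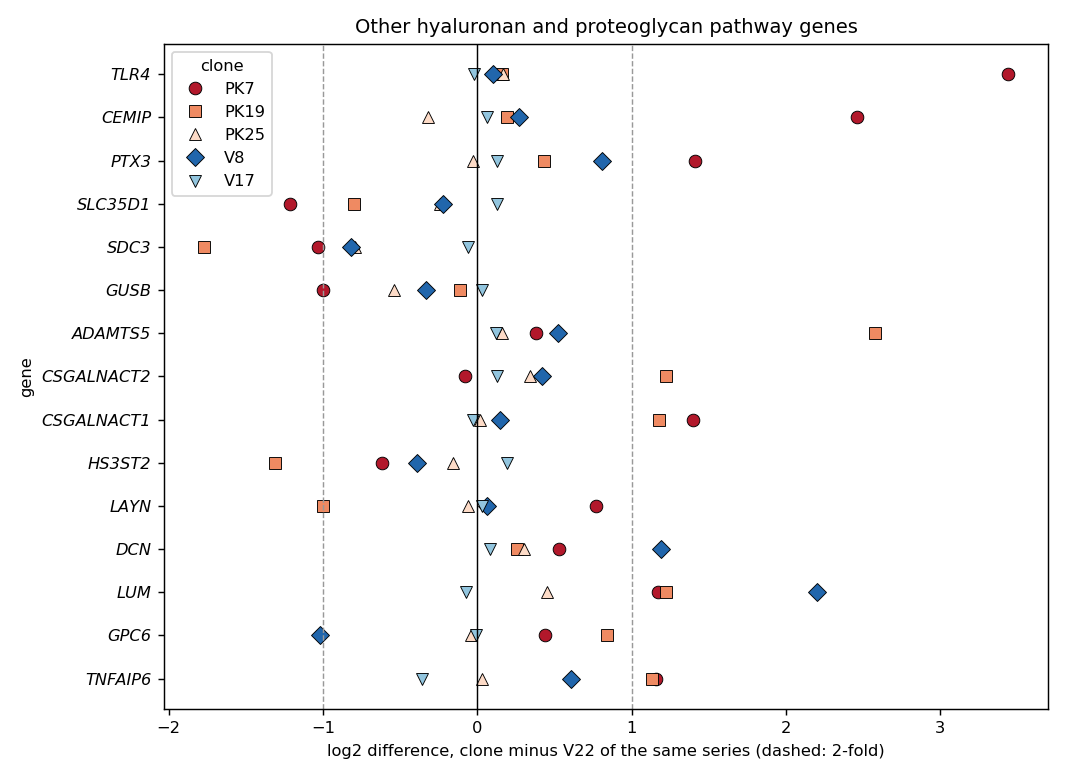
Log2 difference of each clone from V22 of the same series (horizontal axis, dashed lines at 2-fold) for 15 other genes of the pathway (rows), from means of 3 arrays. TLR4 and CEMIP lie far right in PK7 only, ADAMTS5 in PK19 only and LUM furthest right in V8, and V17 stays near 0.

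The genes most alike in pattern were sought for HAS2, CD44 and SRGN, whose clone means spanned at least 1, among 8713 genes with a mean of at least 7, over the 12 arrays of the parkin series. HAS2 was most alike to VIM (Pearson r = 0.972), DUSP5 (0.971) and KRI1 (0.958), whose own differences were small, at -0.21, -0.51 and -0.43 in PK7 and 0.17, 0.36 and 0.33 in PK19. CD44 was most alike to LMAN1 (0.987), ITGB5 (0.986) and PEA15 (0.982), and LMAN1 and ITGB5 differed by 1.67 and 1.57 in PK19. SRGN was most alike to PXDC1 (0.993), ARPC5 (0.987) and PCYT2 (0.985), which differed by -1.94, -0.96 and -1.14 in PK19. These coefficients describe 12 arrays of 4 clones, and arrays of a clone are not independent.

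The position of the genes was examined after their values were seen, with the 3 nearest genes on either side that had a mean of at least 7. Around SRGN on chromosome 10, the 6 neighbours differed in PK19 by -0.42 to -0.04 where SRGN differed by -3.55. In PK7 they differed by -0.54 to 0.29, where SRGN differed by -0.61. Around HAS2 on chromosome 8, they differed by -0.34 to 0.58 in PK7 and by -0.23 to 0.36 in V8, where HAS2 differed by -2.21 and 3.10. Around CD44 on chromosome 11 they differed by -0.39 to 0.12 in PK19, but CAT (1.27) and PAMR1 (1.45) exceeded CD44 (0.49) in PK7. In V8, FJX1 (0.55) and PAMR1 (0.52) came near CD44 (0.66). Around VCAN on chromosome 5, EDIL3 differed by -1.37 in PK19 and -0.82 in PK25, beyond VCAN itself (-0.23 and -0.22). In PK7 the neighbours of VCAN differed by -0.47 to 0.33, where VCAN differed by -0.56. In V8 they differed by -0.41 to 0.58, where VCAN differed by 0.46.

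**Figure D4:**
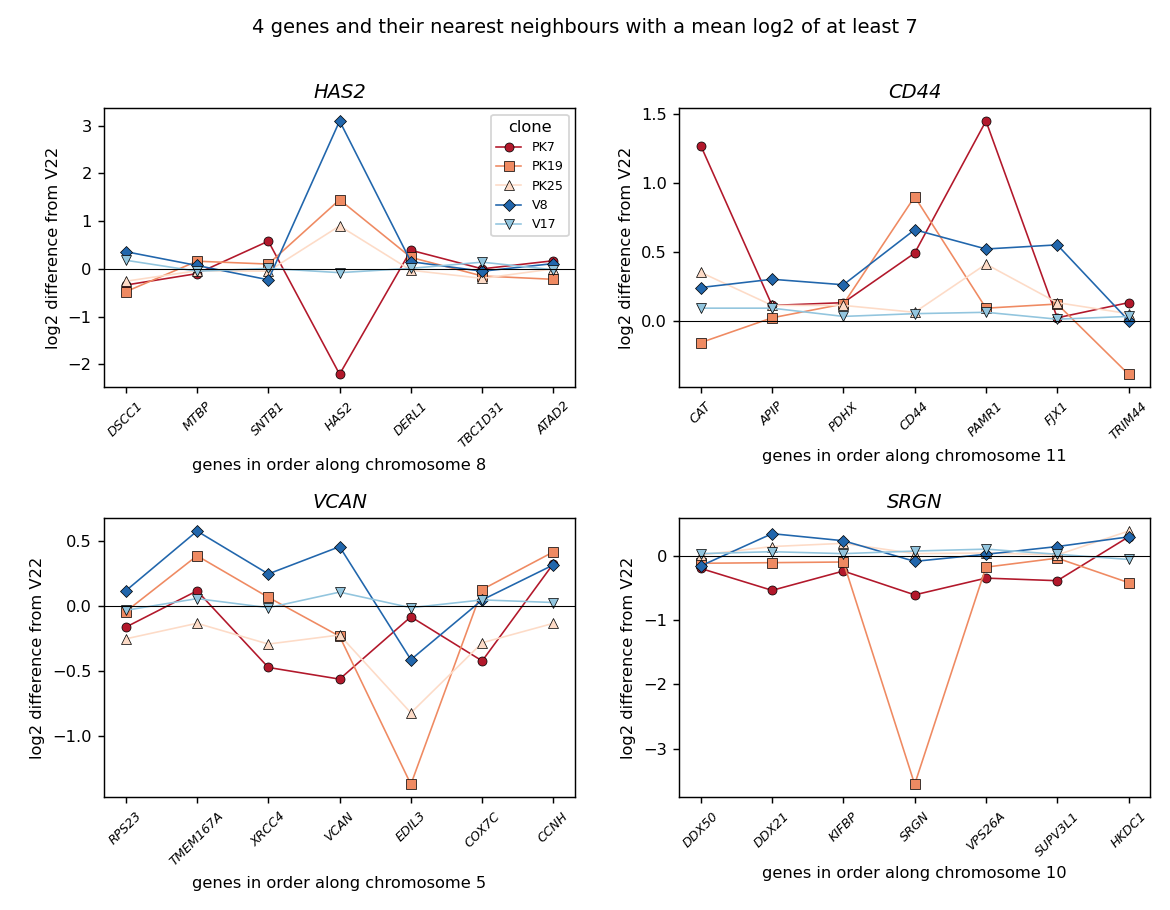
Log2 difference of each clone from V22 (vertical axis) for HAS2, CD44, VCAN and SRGN and the 3 nearest genes with a mean of at least 7 on either side, in order along the chromosome (horizontal axis, not to scale). HAS2 in PK7 and V8 and SRGN in PK19 lie far outside the range of their neighbours, and EDIL3, a gene near VCAN, lies lower than VCAN in PK19 and PK25.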

How the data were processed

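The deposited table holds RMA intensity values that the authors wrote on a linear scale for 26947 probe sets on 21 arrays; RMA is named per the submitters' processing notes without a version, and whether both array series were normalized together is not given in the sources used here. Intensities were turned into log2 values. Array medians were 6.21 to 6.37; arrays have no counted depth, so their number limits the precision. Symbols came from the array's annotation table (1 symbol for 19305 probe sets), updated through gene IDs to RefSeq of GRCh38.p14. Per gene the probe set with the highest mean was used.

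The fit was limma 3.58.1 (lmFit, eBayes) in R 4.3.3, with a mean per clone and array series, over all probe sets, tested on simulated data. Calls needed a Benjamini-Hochberg adjusted p under 0.05 and at least 2-fold. For parkin against vector, 6 clone means were used. The split into series was read from file name prefixes. The members and lists were chosen with earlier results of these data known. Named pathway genes were those called where 6 or fewer in a comparison, otherwise the 3 largest rises and 3 largest falls, and those called in 2 or more parkin clones. DSE, TGFBR3, FCER1G, ADAM10, MSN and the neighbouring genes were named after their values were seen. The introduced gene itself is not reported here.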

Additional observations from a re-analysis of the deposited data

Results flagged for a closer look

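In a group of 4 to 10 arrays, a value far from the rest was sought among the 6 V22 arrays for 22 genes, where chance gives about 1 in 20. CEMIP2 had its lowest array at 7.23 and the next at 7.63, a gap of 0.653 of the range. HS3ST2 had its highest array at 8.60 and the next at 8.32, a gap of 0.664 of the range.

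Every array of 1 parkin clone moved against V22 one way, and every array of another the opposite way, in 4 of the 7 genes and in 13.4% of all 26947 probe sets. The arrays were set against the V22 mean, and these differences were not tested. HAS2 in PK7 minus PK19 was -3.66 and in PK7 minus PK25 -3.11. SRGN in PK19 minus PK25 was -3.58 and in PK7 minus PK25 -0.64, where PK25 itself lay only 0.01 to 0.07 above the V22 mean. HYAL2 in PK19 minus PK25 was -0.41 and in PK7 minus PK25 -0.30, and HAS3 in PK7 minus PK19 was 0.29. HAS3 in PK7 and PK19, HYAL2 in PK7 and PK25 and SRGN in PK25 overlapped the single V22 arrays.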

How the results depend on the processing

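For the pathway genes called in a clone, leaving out the fold limit gave the changes in count above 1.5 times, with 34 in place of 9 in PK7, 31 in place of 8 in PK19, 2 in place of 0 in PK25 and 16 in place of 3 in V8. Quantile normalization, centring on the median, leaving out the dimmest 30% of probe sets, another variance prior, the mean over a gene's probe sets and a fit on the compared arrays alone kept these counts within 1.5 times. Without 1 array the counts were 8 to 11 in PK7, 7 to 8 in PK19, 2 to 3 in V8, 0 to 0 in PK25, V17 and V22 between series, and 43 to 52 among parkin clones. A replicate block on set number gave 39 in place of 49 among parkin clones, 3 in V8 and 0 in V17; parkin clones and V22 of their series share no set number. The labels do not say what a set shares. Correlations of deviations from clone means were 0.0591 to 0.216 for same-set arrays and -0.141 to 0.0533 for different sets in the vector series, so there each array correlated best with its own set, a hint from the data. Among parkin arrays they were -0.0917 to 0.381 and -0.365 to 0.323. The probe sets called in parkin against vector were 1 to 38 without 1 clone (38 without PK25, 3 without V8), 0 with V22 of the parkin series as the only vector clone, 844 with arrays as observations and clone as a random block, and 4097 with the set-number replicate block and no adjustment for the series. No member's difference of at least 2-fold changed sign under any alternative run, but HAS2 in PK19 was 0.98 without its set 2 array. Of the named pathway genes, GUSB, LAYN, GPC6, DCN, SDC3 in PK7 and TNFAIP6 in PK7 fell below 2-fold under at least 1 alternative. DSE and TGFBR3 were not followed gene by gene in these runs. The link between series rests on the 6 arrays of V22 and on reading the file prefixes as series.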
